A study of Mus musculus with 6 samples.

Results

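Pf4 and 7 other CXC chemokine genes (Ppbp, Cxcl1, Cxcl2, Cxcl9, Cxcl10, Cxcl14 and Cxcl16) were described in macrophages sorted from the brains of aged and young mice. They were taken by symbol, through the GENCODE M21 annotation, from tables that each listed 35598 gene identifiers, and all 8 were found. The cells were CNS-associated macrophages (CAMs), which line the perivascular spaces, meninges and choroid plexus, and were sorted as CD11b, CD45 and CD206 positive and CD3 negative. There were 3 libraries from male C57BL/6 mice aged 18 months (aged) and 3 from male C57BL/6 mice aged 2 months (young). All were without genetic change or treatment as far as the labels say. The labels do not state whether the libraries of an age came from separate or pooled animals, so a p-value here weighs age against differences between libraries that may be technical. Libraries held 30044365 to 32902652 counts in the aged group and 26605079 to 33306121 in the young group, from about 500 pg of RNA amplified over 13 cycles.

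Chemokines are small secreted proteins that steer leukocytes through G protein-coupled receptors, and the CXC family is named for a pair of cysteines with 1 residue between them. Ligands with a Glu-Leu-Arg motif before that pair, among them Cxcl1, Cxcl2 and the product of Ppbp, attract neutrophils through Cxcr2. Cxcl9 and Cxcl10, induced by interferons, attract T cells through Cxcr3. Cxcl16 is made as a membrane protein that binds Cxcr6 and is released by the protease Adam10. Pf4 (Cxcl4) is stored in platelet granules and binds heparin-like chains, and in mouse brain its transcript is a known marker of border macrophages.

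Of the 8 genes, 6 lie on chromosome 5 in mm10, in 2 groups. From left to right on the plus strand, the first group runs Cxcl5, Ppbp (90768518 to 90770063), Pf4 (90772435 to 90773383), Cxcl3, Cxcl15, Cxcl1 (90891241 to 90893115) and Cxcl2 (90903871 to 90905938). After a gap of 1415408 bases come Cxcl9 (92321347 to 92328079), Cxcl10 (92346638 to 92348889) and Cxcl11 on the minus strand. Cxcl14 lies on chromosome 13 (56288643 to 56296551, minus strand) and Cxcl16 on chromosome 11 (70453983 to 70459984, minus strand). Cxcl10 and Cxcl16 overlap Art3 and Zmynd15 on the opposite strand, and these had 2 and 9 counts in all 6 libraries together, against 3085 for Cxcl10 and 24232 for Cxcl16. The kit does not mark strand, so reads of such pairs cannot be told apart, but hardly any were assigned to the partner.

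RefSeq promoter windows (GRCm38.p6, the mm10 build, 250 bases before to 50 after the gene start) were found for 7 of the 8 genes, all but Cxcl16. Those of 4 chromosome 5 genes are shown because neighbours there stood at very different levels. Capitals mark matches to 4 short motifs searched on both strands. The kappa B form was GGG followed, after any 3 bases, by TTCC. The interferon response form was GAAA, then any 2 bases, then GAAA once more. The third was TATAAA. The last, added after the windows were read, was the GATA form AGATAA. A match is a description of letters and not a tested site.
Pf4, chr5:90772185-90772484, plus strand: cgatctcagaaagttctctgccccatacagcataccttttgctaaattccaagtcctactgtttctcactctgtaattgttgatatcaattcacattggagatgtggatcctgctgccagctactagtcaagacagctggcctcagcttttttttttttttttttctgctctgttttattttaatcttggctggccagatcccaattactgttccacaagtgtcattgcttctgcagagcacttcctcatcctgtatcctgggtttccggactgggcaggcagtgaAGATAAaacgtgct
Ppbp, chr5:90768268-90768567, plus strand: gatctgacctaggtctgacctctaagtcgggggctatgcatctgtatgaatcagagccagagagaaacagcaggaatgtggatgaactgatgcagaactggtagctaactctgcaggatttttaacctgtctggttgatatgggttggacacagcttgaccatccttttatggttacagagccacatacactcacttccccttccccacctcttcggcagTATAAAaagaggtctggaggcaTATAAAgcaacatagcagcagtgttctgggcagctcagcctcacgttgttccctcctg
Cxcl9, chr5:92328030-92328329, minus strand: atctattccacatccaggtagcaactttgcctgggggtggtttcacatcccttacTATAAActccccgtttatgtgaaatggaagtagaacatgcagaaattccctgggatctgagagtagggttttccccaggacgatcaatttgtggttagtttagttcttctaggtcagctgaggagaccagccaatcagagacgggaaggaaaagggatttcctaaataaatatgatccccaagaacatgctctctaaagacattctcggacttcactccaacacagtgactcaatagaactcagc
Cxcl10, chr5:92348840-92349139, minus strand: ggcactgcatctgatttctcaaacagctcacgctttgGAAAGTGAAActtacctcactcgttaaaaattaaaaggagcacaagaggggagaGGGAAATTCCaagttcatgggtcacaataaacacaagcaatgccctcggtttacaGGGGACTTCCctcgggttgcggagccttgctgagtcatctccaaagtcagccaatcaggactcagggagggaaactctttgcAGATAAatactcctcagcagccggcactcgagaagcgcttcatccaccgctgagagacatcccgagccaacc

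The Pf4 window held 1 match, to AGATAA from base 37 to base 42 after the start, and none to TATAAA. Its neighbour Ppbp held TATAAA at bases -30 to -25 and again at -8 to -3. The Cxcl10 window held GAAAGTGAAA at -213 to -204, kappa B forms at -159 to -150 and -104 to -95 and AGATAA at -22 to -17, while the Cxcl9 window held TATAAA alone, at -195 to -190. The Cxcl14 window, which is not shown, also held the interferon form, as GAAACAGAAA at -172 to -163. Positions count from the RefSeq start, which for Cxcl1 and Cxcl2 lies to the right of the gene start given above. In the windows of Cxcl1 and Cxcl2 the same kappa B form stood at -71 to -62 and at -97 to -88. The 30 bases around it are shown, since both genes carry it and were nearly unread.
Cxcl1, chr5:90891164-90891193, plus strand: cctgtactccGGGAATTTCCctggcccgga
Cxcl2, chr5:90903792-90903821, plus strand: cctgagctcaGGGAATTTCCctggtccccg
Over 32851 promoter windows of that length, 5.56% held the kappa B form, 3.44% the interferon form, 13.6% TATAAA and 11.2% AGATAA. The kappa B form also matches the opposite strand 1 base further on in Cxcl1 and Cxcl2, and each window held another match, at -89 to -80 in Cxcl1 and at -78 to -69 in Cxcl2.

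Counts were scaled with TMM factors to a common library size and are given as CPM, and age was tested by edgeR's quasi-likelihood test over all 10661 genes that passed a filter on low counts. Of the 8 chemokine genes 5 passed the filter (Pf4, Ppbp, Cxcl9, Cxcl10 and Cxcl16), and 0 of them were called at an adjusted p under 0.05, against 0.00938% of all genes tested. At an unadjusted p under 0.05 there was 1, Pf4, on the lower side, where 2.04% of all genes tested lay (3.63% on the higher side). The DESeq2 Wald test, which called 1.48% of all genes (1.1% higher and 0.385% lower), and limma-voom also called 0 of the 5. Each aged library lay below every young one for Pf4 and, at a few counts, for Cxcl2, and above every young one for Cxcl16. Among all genes tested 7.19% were lower in this way and 7.54% higher, and among those averaging 50 CPM or more, as Pf4 and Cxcl16 did, 8.45% and 11.2%. In TPM, which rests on an effective length estimated per library (163 to 1064 bases for Cxcl2), the Cxcl2 groups overlapped. The other 5 genes overlapped between the ages or were not read at all.

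Of the genes behind the sort, Mrc1, which encodes CD206, had 1182 to 2345 CPM in aged and 2674 to 2940 CPM in young libraries, and markers of other blood cells were present too. The 5 erythroid markers summed to 9862, 9075 and 85.8 CPM in aged libraries and 13792, 10100 and 30268 CPM in young ones, with the haemoglobin gene Hbb-bs the most abundant. Aged replicate 3 stood apart in nearly lacking these and the neutrophil markers. Without it, Pf4 was at a log2 fold change of -1.50 and Cxcl16 at 1.07, with Cxcl10 at 2.35, while Ppbp and Cxcl9 turned to negative values given with each gene.

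**Figure D1:**
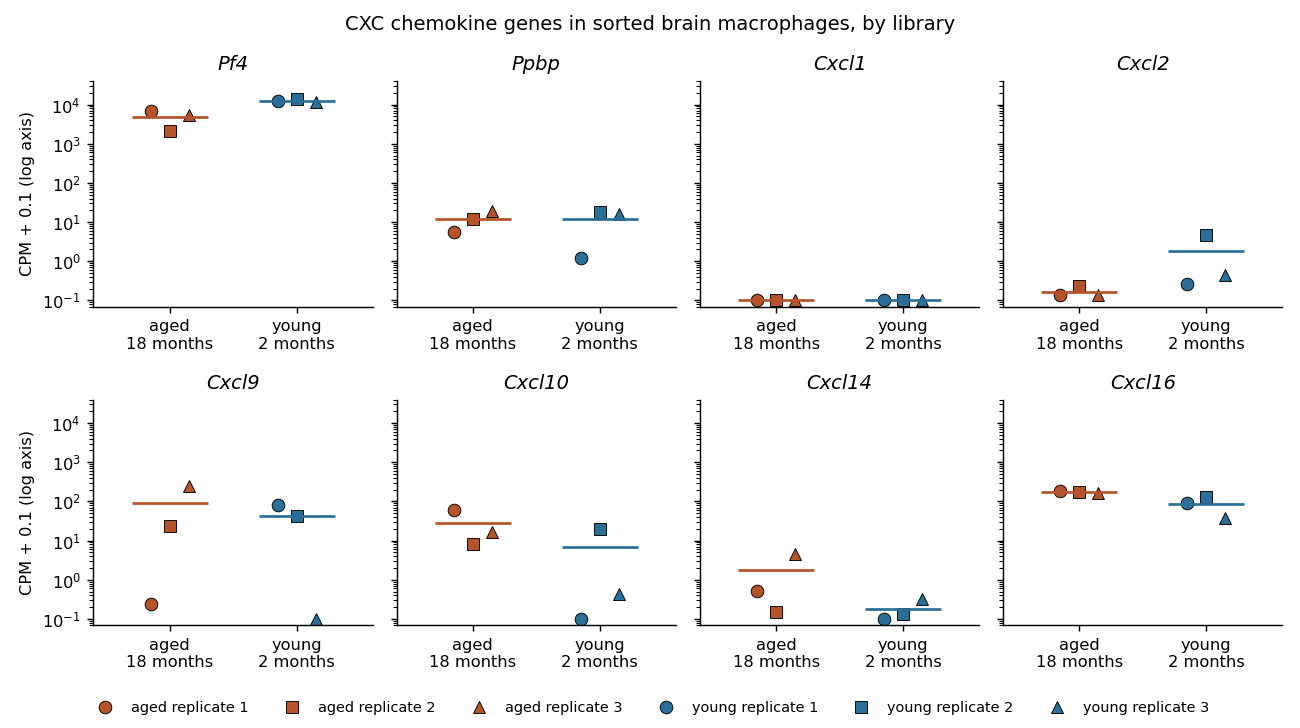
CPM of the 8 CXC chemokine genes in each library, with 0.1 added for the log axis; symbols are replicates, lines are means of 3 libraries, aged left and young right. Pf4 stands between 2166 and 13874 CPM, Cxcl16 between 37.1 and 187 CPM, and Cxcl9 and Cxcl10 reach from 0 counts in 1 library to 253 and 60.6 CPM in another.

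Pf4 was by far the most abundant of the 8 genes in all 6 libraries and was lower in each aged library. It had 6793, 2166 and 5356 CPM in the aged libraries, against 12729, 13874 and 11505 CPM in the young ones. The groups did not overlap, and aged replicate 2 was the lowest of the 6. The means were 4772 ± 2369 CPM in aged and 12703 ± 1185 CPM in young libraries (SD, n = 3 each), so the aged libraries also differed more among themselves, with a coefficient of variation of 49.6% against 9.33%. In edgeR's quasi-likelihood fit the log2 fold change was -1.41 (SE 0.40), with an unadjusted p of 0.00577 and an adjusted p of 0.619. It stood in place 97 of the 10661 genes by p. With the fit limited to 2189 genes averaging 50 CPM or more, the adjusted p was 0.0402 and Pf4 was called, where 1.14% of the genes were called (0.868% higher and 0.274% lower). It was also called with no low-count filter (adjusted p = 3.07e-05), where 0.273% of 22680 genes were called (0.225% higher and 0.0485% lower), and not by DESeq2 (adjusted p = 0.0649) or limma-voom (adjusted p = 0.259).

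As a share of a library's reads, Pf4 took 0.639%, 0.254% and 0.504% in aged libraries and 1.19%, 1.40% and 1.14% in young ones. In deposited TPM, which is scaled for length as well as depth, it had 16794, 8620 and 14366 in aged libraries, against 30750, 35025 and 28815 in young ones. It therefore stood in place 8, 16 and 9 of all genes by TPM in aged libraries and in place 2, 2 and 3 in young ones. The TPM of Pf4 rests on an effective length of 157 to 166 bases, short beside the 1100 to 1576 bases of Cxcl16.

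Other transcripts that mark CAMs were compared beside Pf4, because fewer cells of a type and less RNA per cell cannot be told apart in bulk libraries. All 12 CAM markers chosen, Pf4 left out, were present in every library. Their sum was 11489, 6401 and 9428 CPM in aged libraries and 14996, 16414 and 14974 CPM in young ones, lower in each aged library (exact two-sided permutation p = 0.1, the smallest this design allows). Of the 12, 7 lay lower in every aged library and 0 higher, against 8.45% and 11.2% of all genes tested that averaged 50 CPM or more. By edgeR 0 were called, with 6 lower at an unadjusted p under 0.05, where 2.04% of all genes tested lay. All 12 averaged 50 CPM or more, and in the edgeR fit limited to such genes 1 was called lower, against 0.274%. In that fit 6 were lower at an unadjusted p under 0.05, where 344 of all 2189 genes passed in either direction. DESeq2 called 2 lower, against 0.385% of all genes tested, and limma-voom called 0. The most abundant, the membrane protein gene Ms4a7, was at 2873 ± 1401 CPM in aged and 5488 ± 249 CPM in young libraries, a log2 fold change of -0.93 (SE 0.39, edgeR adjusted p = 0.840). The others without overlap were Mrc1 (-0.79, SE 0.32), which encodes the CD206 of the sort, the endocytic adaptor gene Dab2 (-1.20, SE 0.30), the transcription factor gene Maf (-1.03, SE 0.35), the lectin gene Clec10a (-1.38, SE 0.53), the hyaluronan receptor gene Lyve1 (-0.72, SE 0.38) and the endothelin receptor gene Ednrb (-2.82, SE 0.69). The folate receptor gene Folr2 was at 796 ± 223 CPM in aged and 828 ± 145 CPM in young libraries, the carbonyl reductase gene Cbr2 at 685 ± 48.6 and 651 ± 67.1 CPM, and Cd163, a haemoglobin scavenger receptor gene, at 193 ± 76.7 and 196 ± 32.3 CPM.

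Pf4 stood lower in the aged libraries also relative to the sum of these markers, though not to each of them. Ednrb had a larger drop (log2 fold change -2.82, against -1.41 for Pf4) and Clec10a a similar one (-1.38). The ratio of Pf4 to the summed CAM markers was 0.591, 0.338 and 0.568 in aged libraries and 0.849, 0.845 and 0.768 in young ones. The groups did not overlap, with means of 0.499 ± 0.140 in aged and 0.821 ± 0.0455 in young libraries (SD, n = 3 each, exact two-sided permutation p = 0.1, the smallest this design allows). Without aged replicate 2, the lowest library, the log2 ratio of the group means was -0.50, against -0.72 with it. Microglia markers moved the other way: the sum of 11 of them, all read in every library, was 11031, 18324 and 14623 CPM in aged libraries and 7457, 5822 and 8381 CPM in young ones. Of these 11, 8 lay higher in every aged library, against 11.2% of all genes tested that averaged 50 CPM or more. By edgeR 0 were called, with 8 higher at an unadjusted p under 0.05, where 3.63% of all genes tested lay. In the edgeR fit limited to genes averaging 50 CPM or more, as all 11 did, 1 was called higher, against 0.868%. In that fit 8 were higher at an unadjusted p under 0.05, where 344 of all 2189 genes passed in either direction. DESeq2 called 4 higher, against 1.1% of all genes tested. Aged replicate 2 had both the highest microglia sum and the lowest Pf4. Their part in the Pf4 difference was not tested.

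**Figure D2:**
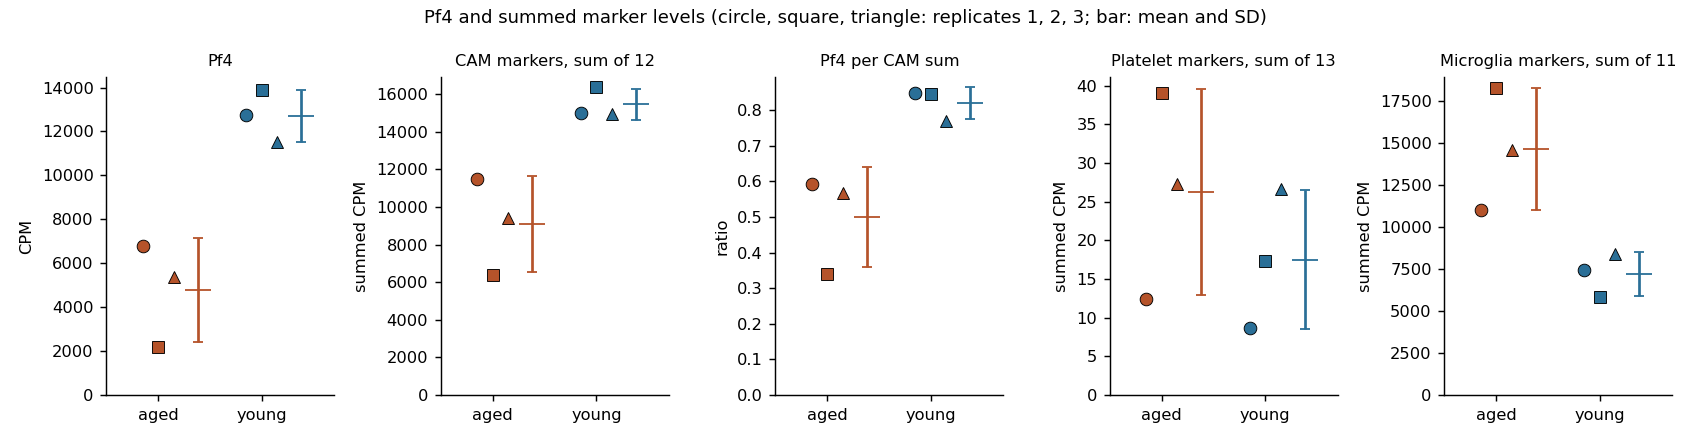
Pf4 in CPM, the summed CPM of CAM markers, the ratio of Pf4 to that sum, and the summed CPM of platelet and microglia markers, per library (symbols) with mean and SD (bars), aged left and young right. Pf4, the CAM sum and the ratio lie lower in all 3 aged libraries, the microglia sum higher, and the platelet sum stays under 40 CPM and overlaps.

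Markers of platelets, the classical source of Pf4, were read at low levels. The 13 platelet markers summed to 12.5, 39.0 and 27.3 CPM in aged libraries and 8.65, 17.3 and 26.6 CPM in young ones, which overlapped (exact two-sided permutation p = 0.4, where 0.1 is the smallest possible). The defining genes Gp1ba, Tubb1 and Treml1 had 0 counts in all 6 libraries, and Gp5 and Gp6 had at most 3 counts in any. Clec1b, a C-type lectin receptor gene, was the most abundant marker, with 257, 230 and 480 counts in aged libraries and 0, 91 and 234 in young ones. Gng11, a G protein subunit gene, had 4, 265 and 0 counts in aged libraries and 257, 302 and 219 in young ones, and at 0.139, 6.87 and 0 CPM in aged libraries, against 8.23, 11.2 and 7.83 CPM in young ones, was lower in every aged library, as Pf4 was (log2 fold change -1.96, SE 2.201, edgeR adjusted p = 0.993). The glycoprotein gene Gp9 had 53, 574 and 0 counts in aged libraries and 0, 0 and 258 in young ones, the integrin gene Itgb3 reached 11.2 CPM in aged replicate 2, and its partner gene Itga2b reached 4.81 CPM in aged replicate 3. The part of platelet RNA in the Pf4 difference was not tested. The platelet sum averaged 26.3 ± 13.3 CPM in aged and 17.5 ± 8.99 CPM in young libraries (SD, n = 3 each). It does not measure how much Pf4 platelets would bring.

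Ppbp, which encodes the precursor of platelet basic protein and of the neutrophil attractant NAP, lies 2371 bases from Pf4 and was read at a far lower level. It had 5.35, 11.8 and 19.4 CPM in aged libraries, against 1.09, 17.7 and 16.3 CPM in young ones. The groups overlapped throughout, and young replicate 1 was the lowest of the 6. The means were 12.2 ± 7.02 CPM in aged and 11.7 ± 9.21 CPM in young libraries (SD, n = 3 each), a log2 fold change of 0.06 (SE 1.38, edgeR adjusted p = 0.998). The sign of that value turned without aged replicate 3 (-0.45) or young replicate 1 (-0.48). In TPM, Pf4 exceeded Ppbp 6347, 911 and 1426 times in aged libraries and 62373, 4091 and 3615 times in young ones. The highest ratio rests on 34 counts of Ppbp in young replicate 1. All depend on effective lengths of 157 to 166 bases for Pf4 and 802 to 851 for Ppbp.

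The neutrophil attractants Cxcl1 and Cxcl2 were hardly read. Cxcl1 had 0 counts in each library, where a floor of 3 counts stands at 0.111 CPM or less. Cxcl2 had 1, 5 and 1 counts in aged libraries and 5, 126 and 10 counts in young ones, so its highest count came from young replicate 2 alone and the other 5 libraries lay between 1 and 10 counts. The aged libraries lay at 0.0347, 0.130 and 0.0353 CPM and the young ones at 0.160, 4.69 and 0.358 CPM. Each aged library was thus under the lowest young one, aged replicate 2 only just. The gene did not pass the low-count filter and was not tested. Such floors allow for counting error only and understate the uncertainty, because amplified reads without molecular identifiers are not independent molecules.

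**Figure D3:**
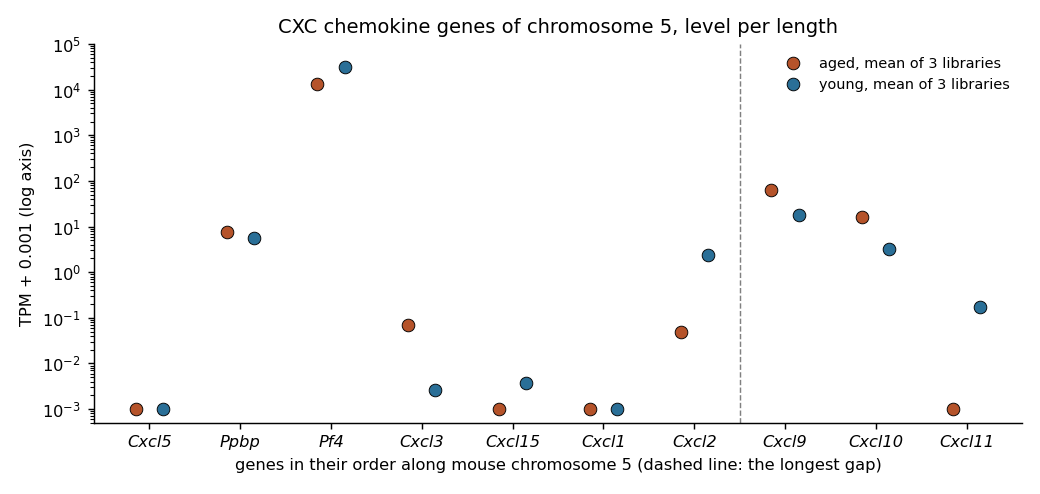
Mean TPM over 3 libraries, with 0.001 added for the log axis, of the CXC chemokine genes in their order on chromosome 5, aged left and young right for each gene. Pf4 stands at 13260 TPM in aged and 31530 TPM in young libraries, beside Ppbp at 7.39 and 5.68 TPM and beside Cxcl5 and Cxcl1 at 0.

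Genes of the early NF-kB response, which commonly move with Cxcl1 and Cxcl2 in activated macrophages, ranged from a mean of 0.8997 CPM for the subunit gene Nfkb2 to 102 CPM for the cytokine gene Il1a over all 6 libraries. Of 15 on the list, all were tested and 0 were called by edgeR, with 0 at an unadjusted p under 0.05 and 0 called by DESeq2 or limma-voom. Their median log2 fold change was 0.06, against -0.02 over all genes tested. Il1a was at 139, 168 and 175 CPM in aged libraries and 63.0, 1.34 and 67.0 CPM in young ones, without overlap (log2 fold change 1.88, SE 0.98, edgeR adjusted p = 0.920). The inhibitor gene Nfkbia was at 111 ± 54.6 CPM in aged and 60.2 ± 22.0 CPM in young libraries and overlapped. Tnfaip3, a feedback inhibitor gene, was at 22.6 ± 15.8 and 3.77 ± 6.33 CPM without overlap (2.58, SE 1.88). Immediate-early genes, which rise when cells are handled, gave 0 calls among 9 tested by edgeR, 0 at an unadjusted p under 0.05 and 0 by DESeq2 or limma-voom. Jun was at 39.8 ± 8.67 CPM in aged and 32.3 ± 7.44 CPM in young libraries, and Dusp1 at 29.0 ± 29.2 and 15.5 ± 15.3 CPM, both with overlap. Without overlap, Fos was at 9.45 ± 5.12 and 32.7 ± 19.6 CPM, Ier2 at 9.38 ± 5.53 and 20.5 ± 7.95 CPM, and Junb at 18.7 ± 5.11 and 7.23 ± 4.83 CPM. Neutrophil markers, led by S100a8, summed to 21628, 8028 and 25.8 CPM in aged libraries and 37773, 12061 and 14491 CPM in young ones, and their part in the levels of Ppbp and Cxcl2 was not tested.

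Cxcl9 and Cxcl10, the interferon-induced T cell attractants, varied more between libraries of 1 age than between the ages. Cxcl9 had 4, 914 and 7146 counts in aged libraries and 2563, 1148 and 0 counts in young ones. That gave 0.139, 23.7 and 253 CPM in aged libraries and 82.1, 42.7 and 0 CPM in young ones, so both ages held 1 library with almost no reads and libraries with many. The means were 92.1 ± 139 CPM in aged and 41.6 ± 41.0 CPM in young libraries (SD, n = 3 each), a log2 fold change of 1.15 (SE 2.13, edgeR adjusted p = 0.993), and without aged replicate 3 the value was -1.81. Of the 1497 genes tested that averaged 50 to 200 CPM, 16 (1.07%) had at least 1 library with no more than 3 counts, and Cxcl9 was among them.

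Cxcl10 had 1744, 321 and 470 counts in aged libraries and 0, 541 and 9 counts in young ones. In CPM it was at 60.6, 8.32 and 16.6 in aged libraries and 0, 20.1 and 0.322 in young ones, so it was well read in each aged library and in young replicate 2 alone. The groups still overlapped, since young replicate 2 lay above aged replicates 2 and 3. The means were 28.5 ± 28.1 CPM in aged and 6.82 ± 11.5 CPM in young libraries (SD, n = 3 each), a log2 fold change of 2.06 (SE 1.98, edgeR adjusted p = 0.993). Without young replicate 2 that value was 7.45 (adjusted p = 0.811), and over the 6 fits that left out a library it lay between 0.89 and 7.45. Among genes with a mean of 10 to 50 CPM, 19.9% had a library at 3 counts or fewer.

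Cxcl9 and Cxcl10 did not go together from library to library. Aged replicate 1 held the highest Cxcl10 (60.6 CPM) with 4 counts of Cxcl9. Aged replicate 3 held the highest Cxcl9 (253 CPM) with 16.6 CPM of Cxcl10. Young replicate 1 had 82.1 CPM of Cxcl9 with 0 counts of Cxcl10. Their shared receptor gene Cxcr3, carried mainly by activated T cells, was at 8.46 ± 13.4 CPM in aged and 10.3 ± 9.66 CPM in young libraries (log2 fold change -0.29, SE 2.04). T and NK cell markers, which the sort should leave out, summed to 152, 17.4 and 0.106 CPM in aged libraries and 29.7, 19.2 and 0.608 CPM in young ones, with Gzma at 0 in all 6. The most abundant, the CD3 chain gene Cd3g, had 1913, 1 and 2 counts in aged libraries and 924, 348 and 15 in young ones. Its partner gene Cd3d had 1711, 332 and 1 counts in aged libraries and 0, 166 and 1 in young ones. The summed markers were highest in the library with the most Cxcl10, and their part in it was not tested.

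The interferon gamma pathway was represented by 17 genes, of which 16 were tested and 0 called by edgeR. At an unadjusted p under 0.05, 4 had higher aged values and 0 lower, against 3.63% and 2.04% of all genes tested. limma-voom called 0 and DESeq2 1, the receptor gene Ifngr1, where 1.1% of all genes tested were called higher. Ifngr1 was also called in the edgeR fit limited to genes averaging 50 CPM or more (adjusted p = 0.00569), where 0.868% were called higher. Ifngr1 had 326, 812 and 651 CPM in aged libraries, against 149, 115 and 161 CPM in young ones, without overlap. Its log2 fold change was 2.07 (SE 0.39) with an edgeR adjusted p of 0.378 over all genes. The median over the 16 genes was 0.54, against -0.02 over all genes tested. Of the 16, 3 were higher in each aged library and 1 lower, against 7.54% and 7.19% of all genes tested. Gbp2, a guanylate-binding protein gene, had 30.9, 24.2 and 105 CPM in aged libraries and 6.24, 10.8 and 0.179 CPM in young ones (3.22, SE 1.30, edgeR adjusted p = 0.808). The kinase gene Jak2 was lower in each aged library, at 11.0, 10.2 and 0.0353 CPM, against 17.9, 11.2 and 16.0 CPM in young ones (-1.08, SE 1.65). Ifi47, another interferon-induced GTPase gene, was at 147 ± 6.27 CPM in aged and 140 ± 60.3 CPM in young libraries.

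Cxcl16, the membrane-bound ligand that also acts as a scavenger receptor for oxidised lipid, was higher in each aged library. It had 187, 176 and 163 CPM in aged libraries, against 91.1, 132 and 37.1 CPM in young ones. The aged libraries lay close together, with a coefficient of variation of 6.81% against 54.8% in young ones, and young replicate 3 was the lowest. The means were 176 ± 11.95 CPM in aged and 86.6 ± 47.5 CPM in young libraries (SD, n = 3 each), a log2 fold change of 1.02 (SE 0.48) with an unadjusted p of 0.0594 and an edgeR adjusted p of 0.892. It was not called in any of the 16 other fits, in which the value lay between 0.66, without young replicate 3, and 1.45, without young replicate 2. Cxcl16 was the steadiest of the 8 genes among aged libraries, while Pf4 was the steadiest among young ones.

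The partners of Cxcl16 differed in how well they were read. The receptor gene Cxcr6 had 5.14 CPM in aged replicate 1 and at most 0.0259 CPM in the other aged and the young libraries. The protease gene Adam10, which releases Cxcl16 from the membrane, was at 72.3, 57.5 and 97.1 CPM in aged libraries and 81.6, 111 and 154 CPM in young ones, with overlap (log2 fold change -0.61, SE 0.43, edgeR adjusted p = 0.974). Adam17, a related sheddase gene, was at 44.9 ± 14.6 CPM in aged and 41.9 ± 17.7 CPM in young libraries. All 3 shedding genes were tested and 0 were called by edgeR, with 0 at an unadjusted p under 0.05 and 0 by DESeq2 or limma-voom.

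Cxcl14, a constitutive chemokine of many epithelia, was near the limit of detection. It had 12, 2 and 129 counts in aged libraries and 0, 1 and 6 counts in young ones, so aged replicate 3 held most of its reads. In CPM this was 0.417, 0.0518 and 4.56 in aged libraries and 0, 0.0372 and 0.215 in young ones. It did not pass the low-count filter. Aged replicate 3 was also the aged library with the most choroid plexus epithelium transcripts, whose markers, led by Ttr, summed to 1002, 564 and 7987 CPM in aged libraries and 1360, 1117 and 11783 CPM in young ones. Young replicate 3, with the highest sum, had 6 counts of Cxcl14, and the part of these cells was not tested.

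Per length, the order of the genes by mean TPM over all libraries was Pf4, Cxcl16, Cxcl9, Cxcl10, Ppbp, Cxcl2, Cxcl14 and Cxcl1. Cxcl16 had 51.8, 72.0 and 50.9 TPM in aged libraries and 31.9, 47.3 and 10.9 TPM in young ones. Cxcl9 reached from 0.022 to 165 TPM in aged libraries and from 0 to 38.2 TPM in young ones. Its effective length varied from 642 to 2582 bases between libraries. Only the first step of that order was beyond the spread between libraries, since the lowest Pf4 value, 8620 TPM, lay far above the highest value of any other gene, 165 TPM. From Cxcl16 down to Cxcl14 each neighbour overlapped the next in TPM. Cxcl1 was listed at 0.

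Of 7 further CXC ligand genes, 1 was measurable. Cxcl13, a B cell attractant, was at 208, 117 and 154 CPM in aged libraries and had 0 counts in each young one, and was the 1 gene called in the whole table (edgeR adjusted p = 0.00439). The call was lost without aged replicate 2 or aged replicate 3 and in limma-voom. It was the only CXC ligand other than Pf4 and Cxcl16 above 100 CPM in each aged library. Cxcl3, Cxcl5, Cxcl11, Cxcl12, Cxcl15 and Cxcl17 stayed under 2 CPM in each library and were not tested. Of 8 CXC receptor genes, 3 were tested (Cxcr2, Cxcr3 and Cxcr4) and 0 called by edgeR, with 0 at an unadjusted p under 0.05 and 0 by DESeq2 or limma-voom. The most abundant by group mean beside Cxcr3 was Cxcr4, the receptor of Cxcl12, at 9.33 ± 5.25 CPM in aged and 6.77 ± 2.25 CPM in young libraries (0.46, SE 1.41).

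**Figure D4:**
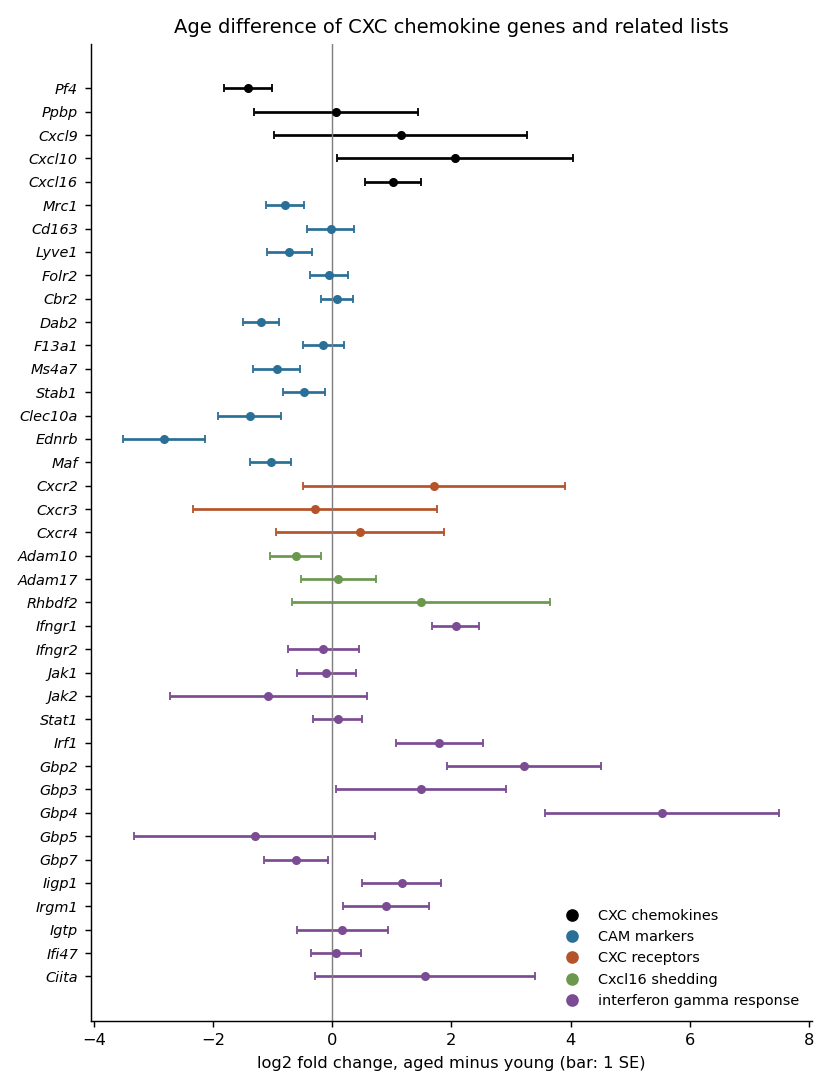
Log2 fold change (aged minus young) with 1 SE from the edgeR fit for the 5 tested CXC chemokine genes and for tested CAM markers, CXC receptors, shedding genes and interferon gamma pathway genes. Pf4 lies at -1.41 among the lower CAM markers, Cxcl16 at 1.02, and the bars of Ppbp and Cxcl9 cross 0.

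Across the 6 libraries the genes most like Pf4 were Psenen, Lst1, Cyb5a, Mt1 and Ndufa6, with Pearson r of 0.994, 0.992, 0.989, 0.987 and 0.986 in log2(CPM + 1) among 2186 genes averaging 50 CPM or more, Pf4 itself and genes without a symbol left out. These values describe 6 points that share their age groups and libraries. Psenen, a subunit gene of gamma-secretase, had 497, 341 and 467 CPM in aged libraries, against 680, 676 and 608 CPM in young ones. Lst1, a leukocyte membrane protein gene, had 1135, 501 and 817 CPM in aged libraries and 1553, 1755 and 1558 CPM in young ones. Both had their lowest value in aged replicate 2, as Pf4 did, over a smaller range. Cyb5a encodes a cytochrome b5, Mt1 a metallothionein and Ndufa6 a subunit of respiratory complex I, and none of the 5 was called by edgeR (log2 fold changes from -0.99 to -0.37). Among CAM markers, Maf (r = 0.976, place 12) and Ms4a7 (r = 0.957, place 29) stood nearest to Pf4, while Cbr2 (r = -0.43) and Cd163 (r = 0.0328) did not follow it. Cxcl16 had r = -0.56 and Cxcl9 r = -0.11 with Pf4.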

How the data were processed

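RNA from 6 sorted CAM libraries was sequenced, 3 of each age. Per the submitters' processing notes, the tools were bcl2fastq 2.20, FastQC, fastp, Picard and DRAGEN, on mm10. Which tool did what, and the annotation, is not given in the sources used here. Per the file headers, the authors deposited an estimated count of reads per gene, not scaled to depth, and TPM, which they scaled for depth and effective length. Estimated counts were rounded to whole numbers, which moved library totals by 8.85e-05% or less. Of 35598 identifiers 35513 matched GENCODE M21 without their version.

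Genes were kept by filterByExpr, scaled by TMM and tested with edgeR 4.0.16 (R 4.3.3; quasi-likelihood, robust, no covariate, two-sided), with Benjamini-Hochberg adjustment over the 10661 genes tested and calls at an adjusted p under 0.05. The SE was taken as the size of the log2 fold change divided by the root of F. For a count of 0, the CPM that 3 counts would give was taken as a floor for description only. Means, SDs and tests kept the 0. Scripts were tested on simulated data with changes placed only in genes averaging 50 CPM or more. The simulated spread between libraries was smaller than in these data, where edgeR's median coefficient of variation was 116.8% over the genes tested. It therefore does not show how often real changes would be called here. Exact permutation tests used SciPy 1.17.1. The alternatives were DESeq2 1.42.0 (test and size factors), limma 3.58.1 (voom, and trend on log2 of TPM plus 1 or 0.1), other filters, library totals, a replicate block and each library left out.

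The genes, lists and tests were chosen with earlier results of these data known. The genes named were all 8 chemokines, the called members of each pathway list or else the 2 most abundant, members with a mean of at least 10 CPM that did not overlap, the most abundant marker of a printed cell type list (that of microglia is not reported here), and the 5 genes most like Pf4. The other CAM markers, Cd3d, Gzma and the platelet markers other than Clec1b were named after their values were seen.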

Additional observations from a re-analysis of the deposited data

How the results depend on the processing

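Of 78 values recomputed for the 5 tested chemokine genes under up to 16 other settings, 72 kept their direction and their side of the threshold. Pf4 was called in the fit limited to genes averaging 50 CPM or more (log2 fold change -1.45) and with no low-count filter (-1.38), which gave 1 called chemokine gene in each and 1 interferon gamma pathway gene (Ifngr1) in each and in the DESeq2 Wald test. Over all genes the 1 call became 158 in DESeq2, 0 in limma-voom, 62 with no filter and 25 in the fit limited to 50 CPM or more, and 0 to 2 with 1 library removed. Calls among the further CXC ligands became 0 in limma-voom and 0 to 1 with 1 library removed. With 1 library removed the log2 fold change of Ppbp ranged over -0.48 to 0.50 and that of Cxcl9 over -1.81 to 2.12. With a block on the replicate number Cxcl9 was at -0.82 and Pf4 at -1.55 (adjusted p = 0.914), and no other chemokine gene turned. Whether equal replicate numbers shared a preparation is not given in the sources used here. Deviations from the group means correlated at -0.00740, 0.0405 and 0.0992 for replicates 1, 2 and 3. With 3 libraries per age these values cannot decide it. The summed choroid plexus epithelium markers were highest in replicate 3 at both ages (7987 CPM in aged and 11783 CPM in young).

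As log2 ratios of group means, the summed monocyte markers turned to 0.51 in TPM and the fibroblast markers to 1.53. With a library left out the sums lay between -0.55 and 1.04 for monocytes, -0.92 and 2.51 for T and NK cells, -2.60 and 1.36 for choroid plexus epithelium, -0.54 and 0.00942 for endothelium, and -1.47 and 0.95 for fibroblasts. Of the 5 genes most like Pf4, 3 stayed among the first 5 in TPM and 2 to 4 with a library left out. The cause of these shifts was not tested. Libraries with no more than 3 counts limit what can be said of Cxcl1, Cxcl2, Cxcl9, Cxcl10 and Cxcl14.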
